A study of Homo sapiens with 12 samples.

Results

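The sites described here are adenosines called as N6-methyladenosine (m6A) in mRNA of HEK293E cells whose surrounding 5-mer starts with a pair of guanines. In these lists the 5-mer carries the called adenosine in its middle, and a site was taken when the first and the second letter of its deposited 5-mer were both G. The rule used the letters of the 5-mer and no measured value. It found 51436 of 160249 listed sites: 30495 of 96671 in the list from cells given insulin and 20941 of 63578 in the list from cells given insulin and Torin1. These double-G (GG) sites held 3 motifs, GGACA and GGACC and GGACT, which differ in the last letter. The other 108813 sites, which start with any other permitted pair of letters, served as the comparison.

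HEK293E is a line derived from human embryonic kidney. All cells were kept without serum overnight and then received insulin at 200 nM for 30 h, a time taken from the study's design text alone. One group received insulin alone and the other was first given Torin1, an inhibitor of the kinase mTOR, at 250 nM, so every sample had been exposed to insulin and no sample without it was analysed here. Each group had 3 replicates, labelled as biological triplicates, and each replicate gave a miCLIP library and an input RNA-seq library from RNA selected for poly(A) tails. The design asks what Torin1 does to the m6A map and to mRNA levels. Of 10 marker genes of embryonic kidney and neural identity, 8 had a mean of at least 10 normalized units in the input libraries. Of 11 markers of other cell types, 4 did, and the highest of these means was 497 units. Among the 8 kidney and neural markers LHX1, EYA1, SIX2, WT1 and NEFM lay below that value, and VIM was highest at 7922.

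In mRNA, m6A is placed by a complex of METTL3, the catalytic subunit, and METTL14, with partners that include WTAP, VIRMA, RBM15 and ZC3H13. The enzyme acts within a short motif known as DRACH, in which D is any base but C, R is a purine, H is any base but G, and the A between R and C receives the methyl group. FTO and ALKBH5 can remove the mark, and YTH-domain proteins bind it. Most mapped m6A lies in long internal exons and around stop codons, and the motif with GG before the adenosine has been the best known form since the first biochemical work on this mark. In miCLIP an antibody to m6A is crosslinked to the RNA, and substitutions that the crosslink leaves in the reads mark the position. The number of reads over a site follows how much RNA was captured there, and the substituted fraction is the share of those reads that carry the substitution.

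The letters around some sites show what the rule selects. RefSeq windows that start 250 bases before and end 50 bases after each gene start (GRCh38.p14) held 848 listed GG sites, of which 833 had the deposited 5-mer at the listed position. Of the 848, 246 lay after the gene start. The following 25-base windows come from 8 of the sites with the most substituted reads for their motif among those, with the 5-mer in capitals and all sequences given 5′ to 3′ on the strand of the gene. They are shown as examples of the 3 motifs in a part of the gene where every letter of the sequence could be read.
TMEM167A: agggcagacgGGACAtgcagcctct
P2RY1: ccggcactccGGACAgagctgggcc
TFDP1: gccacggccgGGACCgcccggcccg
NSUN6: aaagataaagGGACCgagctgctgt
PPM1L: cagtgctcccGGACCcggcgagcct
SRSF6: ttgtgtggctGGACTcggccgcccc
TNFRSF6B: atgggcttctGGACTtgggcggccc
PGBD4: cctatgaaggGGACTgcccatgaag

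The SRSF6 window lies on the plus strand at chr20:43457897-43457921, and its site, 13 bases after the gene start, had 4 substituted of 423 reads with insulin and 5 of 843 with Torin1. SRSF6 encodes a splicing factor, and its site had by far the most reads of the 8. The TMEM167A site (window chr5:83077375-83077399, minus strand) had 5 of 18 reads substituted with insulin and 2 of 2 with Torin1. The TFDP1 site, in the gene of a partner of the E2F factors (window chr13:113584776-113584800, plus strand), had 2 of 12 and 1 of 19. The PPM1L site (window chr3:160756238-160756262, plus strand) had 3 of 4 reads substituted with insulin and was absent from the Torin1 list, as were the sites of NSUN6 and PGBD4. Even these 8 sites had no more than 5 substituted reads in a list.

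RefSeq hairpins of miRNA genes held 9 GG positions in 8 hairpins. The 3 shown here are from the hairpins with a site in both lists, written as RNA, with the capitals again marking the 5-mer.
MIR1182: gGGACUugucacugcc
MIR922, first site: ucccuguccuGGACUggggucagac
MIR922, second site: gcagagaauaGGACUacgucau
The MIR1182 site (window chr1:231019909-231019924, minus strand) had 2 substituted of 50 reads with insulin and 4 of 282 with Torin1. The first MIR922 site (window chr3:197674537-197674561, minus strand) had 1 of 40 and 2 of 28, and the second had 3 of 46 with insulin and was not in the Torin1 list. These libraries were made from poly(A) RNA, so the reads can come from a longer transcript that holds the hairpin.

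GG sites made up 27.6% to 33.4% of the sites in each library. Under insulin they were 16909 of 50656 sites (33.4%) in replicate 1, 11672 of 39670 (29.4%) in replicate 2 and 1914 of 6345 (30.2%) in replicate 3. With Torin1 they were 18731 of 56298 (33.3%), 429 of 1552 (27.6%) and 1781 of 5728 (31.1%). The libraries thus differed far more in the number of sites than in the GG share, and replicate 1 was the highest in both groups. The mean share was 31.0% ± 2.10 with insulin and 30.7% ± 2.84 with Torin1 (SD, n = 3 each), a difference of -0.32 percentage points with overlapping groups (exact permutation test, two-sided, p = 0.9, where 3 against 3 cannot go below 0.1). Each position was listed once per condition, under 1 replicate, so the replicates of a condition are separate sets of sites and not repeat measurements of the same ones.

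Among GG sites adenine was the most frequent last letter. With insulin 12948 GG sites were GGACA, 10772 were GGACT and 6775 were GGACC, which is 42.5%, 35.3% and 22.2%. With Torin1 the counts were 8910, 7711 and 4320. In both full lists the other 5 starts (AA, AG and GA, then TA and TG) had T as the most frequent last letter, at 44.96% to 50.6% of their sites. The order held in each library for GG, and for the other starts in every library except Torin1 replicate 2, where AA and TA starts also ended most often in A. T closed 35.3%, 35.4% and 35.1% of GG sites in the insulin libraries and 36.8%, 36.1% and 36.8% in the Torin1 libraries, against 45.3% to 49.2% of other sites. The within-library difference was -11.2 percentage points ± 1.48 (SD over 6 libraries), lower in 6 of 6, in a comparison added after the data were seen (exact sign-flip permutation test, two-sided, p = 0.03125, the smallest that 6 libraries allow; Benjamini-Hochberg adjusted over the 9 within-library comparisons, 0.05625). No member of that family passed 0.05 after adjustment.

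The GGACT share of GG sites was higher in each Torin1 library than in any insulin library. It was 35.3% ± 0.14 with insulin and 36.6% ± 0.41 with Torin1 (SD, n = 3 each). The difference of 1.34 percentage points had p = 0.1 by the exact permutation test, the smallest possible with 3 against 3. The GGACC share was 21.3%, 23.2% and 24.5% in the insulin libraries and 20.4%, 21.2% and 22.6% with Torin1, where the groups overlapped.

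GG sites more often carried 3 or more substituted reads than other sites did, in each of the 6 libraries. Sites with 3 or more substituted reads were 22.8%, 14.8% and 7.001% of GG sites in insulin replicates 1 to 3, against 17.8%, 12.5% and 6.09% of other sites. With Torin1 they were 23.8%, 19.8% and 7.30% against 17.7%, 17.3% and 5.78%. The gap was 0.91 to 6.05 percentage points, with a mean of 3.06 ± 2.03 (SD, n = 6; exact sign-flip permutation p = 0.03125, adjusted 0.05625). It was widest in the replicate 1 libraries, which hold most sites. The other sites with G as the second letter had 18.1%, 12.9% and 6.73% with insulin and 18.99%, 19.96% and 6.39% with Torin1. Against these sites GG was lower in Torin1 replicate 2. The most common GG site still had a single substituted read, 58.4% of them with insulin and 55.1% with Torin1.

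In each list as a whole the GG share of all sites was higher in each successive class of substituted reads. With insulin it went from 29.9% of 59510 sites with 1 substituted read (Wilson 95% interval 29.5% to 30.3%) through 32.2%, 35.1% and 40.4% to 49.6% of 657 sites with 10 or more (45.8% to 53.4%). With Torin1 it went from 30.5% of 37869 sites through 33.9%, 38.1% and 41.2% to 49.3% of 887 sites (46.0% to 52.6%). Replicate 1 supplied 317 of the 326 GG sites in the top class with insulin and 436 of 437 with Torin1. Single libraries did not all keep the order: insulin replicate 3 had 33.5% at 2 substituted reads and 32.4% at 3 to 4, and Torin1 replicate 2 had 31.4% at 3 to 4 and 24.5% at 5 to 9. The intervals treat each site as independent and cover counting error only, not the spread between libraries. The reads behind a class need not be independent molecules either. Within GG sites the last letter differed between these classes too. In the insulin list GGACC was 23.0% of the GG sites at 1 substituted read and 12.3% at 10 or more, and GGACA was 41.4% and then 50.3%. In the Torin1 list GGACC went from 22.3% to 11.7% and GGACA from 41.5% to 48.97%. GGACT differed less, from 35.7% to 37.4% and from 36.2% to 39.4%.

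**Figure D1:**
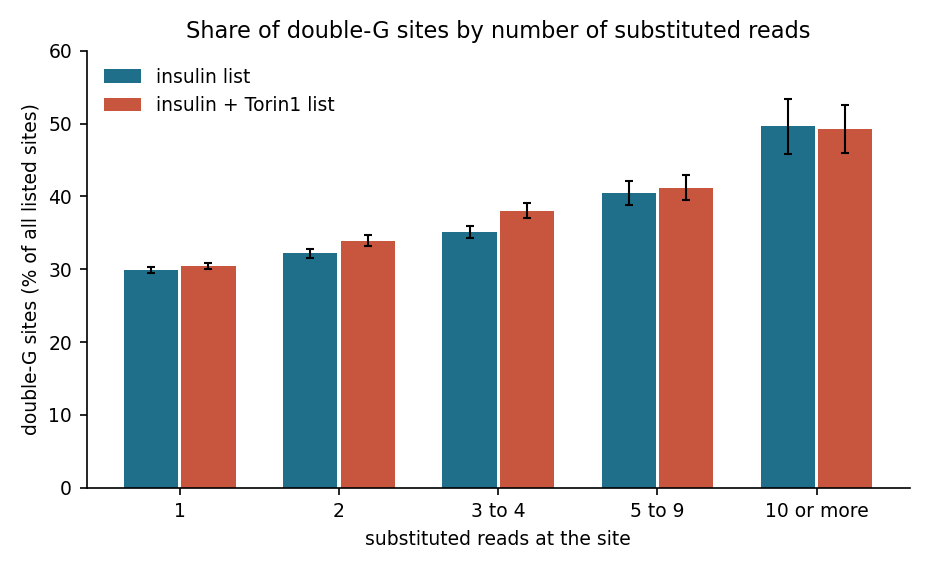
Double-G sites as a percentage of all listed sites (vertical axis) in 5 classes of substituted reads (horizontal axis), for the insulin list and the insulin + Torin1 list. Bars give the share and whiskers its Wilson 95% interval; the share rises in each list from about 30% at 1 substituted read to 49.6% and 49.3% at 10 or more.

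The mean log2 number of reads over GG sites was higher than over other sites in 5 of 6 libraries. The median was 10 against 9 reads in insulin replicate 1, 7 against 8 in insulin replicate 2 and 18 against 14 in Torin1 replicate 1, and it was 2 for both kinds in the other 3 libraries. On the log2 scale the mean difference in reads was 0.12 ± 0.12 (SD, n = 6; exact sign-flip permutation p = 0.0625, adjusted 0.0804). It was 0.0013 (adjusted 0.969) against the other sites with G as the second letter, and 0.076 (adjusted 0.234) when sites with every read substituted were left out. The deepest GG site had 1303 reads with insulin and 6515 with Torin1. Within the GG sites GGACA had the fewest reads, with a median of 7 in the insulin list against 10 for GGACC and 9 for GGACT, and of 13 against 16 and 17 in the Torin1 list.

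The substituted fraction of GG sites and of the rest differed little and in no single direction. Its mean over GG sites was 0.293, 0.342 and 0.631 in insulin replicates 1 to 3 and 0.203, 0.825 and 0.705 in the Torin1 replicates, where other sites had 0.309, 0.331, 0.650 and 0.234, 0.829, 0.731. GG sites were lower in 5 of 6 libraries, by -0.014 ± 0.015 on average (SD, n = 6; exact sign-flip permutation p = 0.09375, adjusted 0.105). A site is listed only with at least 1 substituted read, so a fraction is high wherever few reads cover a site, and the 3 libraries with a median of 2 reads had the highest means. Compared at equal reads over the site, the difference was 0.0051 ± 0.0041 and GG was higher in 5 of 6 libraries (exact sign-flip permutation p = 0.0625). In the insulin list the mean fraction at 100 or more reads was 0.044 for GG and 0.030 for other sites, and at 20 to 49 reads it was 0.084 and 0.074. Within GG sites the mean fraction of GGACT was below that of the other two motifs in 5 of 6 libraries, by -0.020 ± 0.028 (SD, n = 6; exact sign-flip permutation p = 0.125, adjusted 0.125), and by -0.0063 at equal reads.

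GG sites were found again in the list of the other condition more often than other sites, in each of the 6 libraries. There were 41106 distinct GG positions, of which 10330 were in both lists. These were 33.9% of the insulin GG sites and 49.3% of the Torin1 GG sites, where the values for other sites were 25.8% and 39.98%. By library the share of GG sites in the other list was 40.9%, 25.4% and 23.7% with insulin and 50.6%, 39.4% and 38.3% with Torin1. For other sites it was 31.9%, 19.8% and 16.7%, and 41.1%, 31.5% and 31.4%. The difference was 7.64 percentage points ± 1.46 (SD, n = 6), between 5.52 and 9.46, and GG was higher in 6 of 6 libraries (exact sign-flip permutation p = 0.03125, adjusted 0.05625). The 10330 shared positions count in a library of each list, so the 6 differences are not independent of each other. The mean difference was 7.20 over the insulin libraries and 8.09 over the Torin1 libraries, with overlapping values (exact permutation p = 0.5). GGACC was the motif shared least, at 27.6% of its insulin sites and 43.4% of its Torin1 sites, against 35.4% and 51.4% for GGACA and 35.98% and 50.3% for GGACT.

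**Figure D2:**
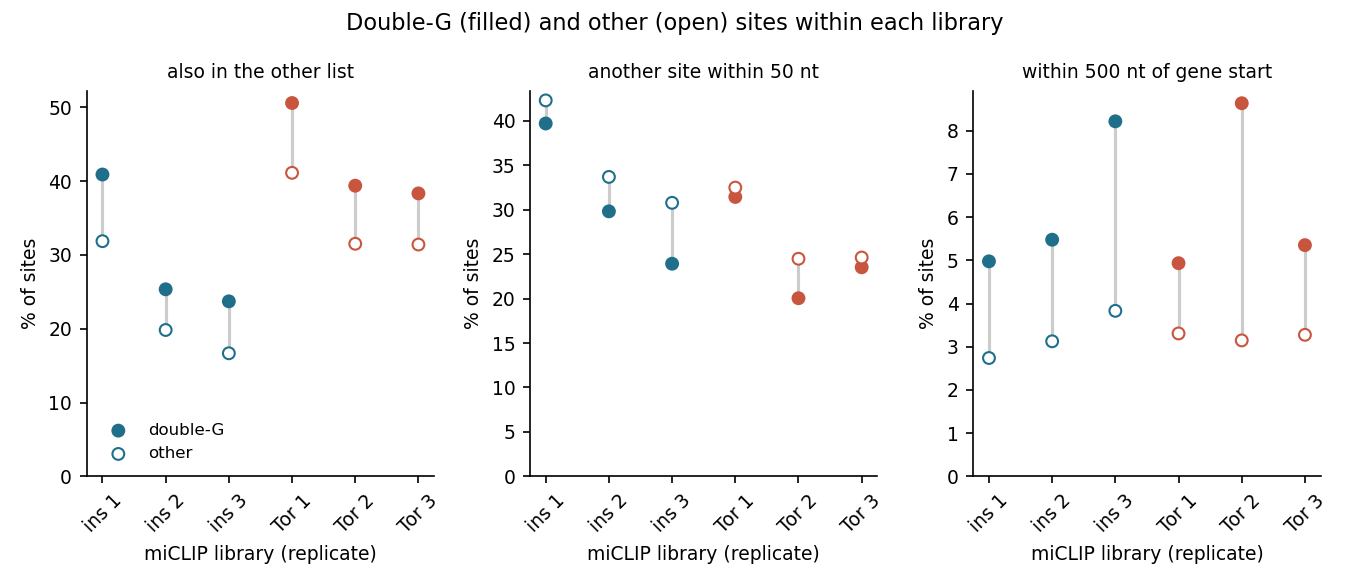
Percentage of double-G sites (filled) and of other sites (open) in each of the 6 miCLIP libraries that were also in the other list, had another listed site within 50 nt, or lay within 500 nt of the gene start. Lines join the 2 values of a library; the filled point is above the open one in all 6 libraries in the left and right panels and below it in all 6 in the middle one.

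Depth moved with sharing: sites with more reads were shared more. At 1 read over the site 8.37% of GG and 6.79% of other sites of insulin replicate 1 were also in the Torin1 list, and at 100 or more reads 87.6% and 79.2% were. In Torin1 replicate 1 the values were 8.66% and 6.59%, then 86.9% and 79.2%. GG was the higher of the 2 in every class of reads in both replicate 1 libraries. At equal reads the within-library difference in sharing was 6.50 percentage points, and at equal reads and equal substituted reads it was 6.16, with GG higher in 6 of 6 libraries each time (exact sign-flip permutation p = 0.03125 each). The share with 3 or more substituted reads differed by 2.17 percentage points at equal reads.

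**Figure D3:**
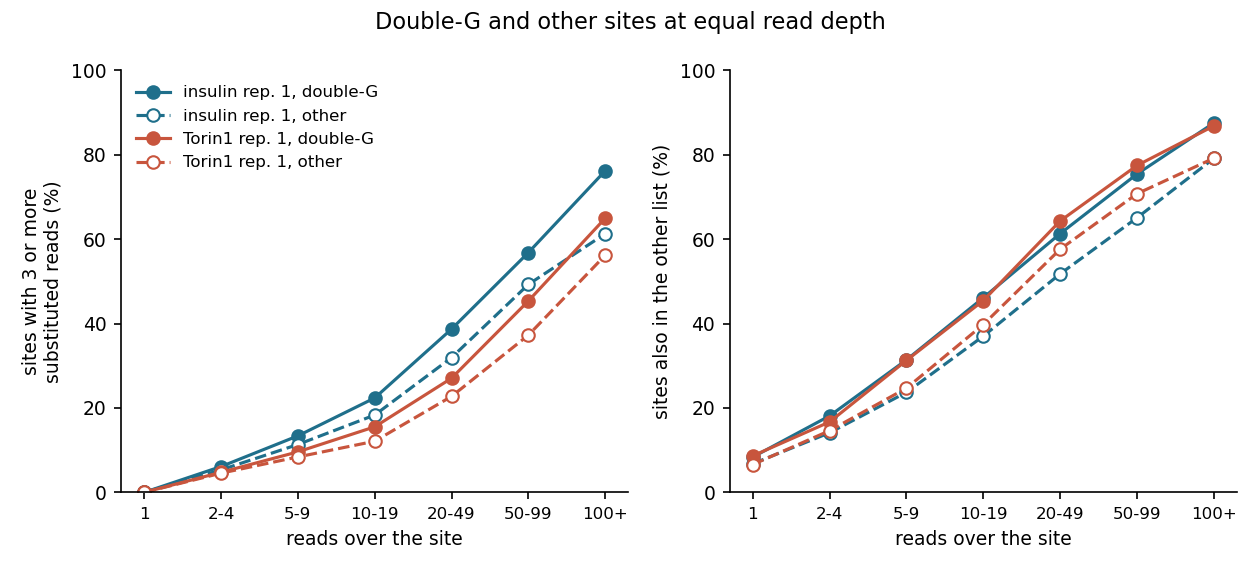
Percentage of sites with 3 or more substituted reads (left) and of sites also in the other list (right) by the number of reads over the site, for double-G (filled, solid) and other (open, dashed) sites in replicate 1 of each condition. The double-G line runs above the other line of the same library from 2 reads upward, and at 100 or more reads the shared percentages are 87.6 and 79.2 with insulin and 86.9 and 79.2 with Torin1.

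Positions listed in both conditions allow the substituted fraction to be set side by side at the same base. Among GG positions listed under replicate 1 in both lists with at least 20 reads in each, 3084 in all, the median fraction was 0.064 with insulin and 0.039 with Torin1. The median reads were 41 and 74. The fraction was higher with insulin at 73.6% of these positions, and the median log2 ratio of Torin1 to insulin was -0.74. The 4527 other positions chosen the same way gave 0.054 and 0.034, 71.1% and -0.72, and the 2 sets had similar shifts. By motif the median log2 ratio was -0.79 for GGACA, -0.83 for GGACC and -0.66 for GGACT. A listed position has at least 1 substituted read, so the lowest fraction it can have is lower where more reads cover it. The Torin1 library had more reads at these positions, and the part of depth in the shift was not tested. This comparison sets 1 library against 1 library, and has no replicate check.

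Most GG sites lay in protein-coding genes. On the strand of exactly 1 such gene lay 82.9% of insulin GG sites and 85.5% of Torin1 GG sites (other sites 84.7% and 85.8%). Another 6.91% and 5.01% lay in a protein-coding gene body on the opposite strand, and 4.33% and 4.89% in a long noncoding RNA gene or pseudogene. The 4.54% and 3.07% in none of these can include sites in other kinds of noncoding gene, which were not counted. Mitochondrial RNA held few of them: 11 GG sites with insulin and 15 with Torin1, against 189 and 193 other sites. Exons, introns and UTRs were not assigned, since a transcript annotation was not used here.

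Near the gene end GG sites were more frequent than others in 5 of 6 libraries. Of GG sites in 1 gene, 35.6%, 33.2% and 34.5% lay within 2000 nt of the annotated gene end in the insulin libraries, against 32.6%, 30.6% and 30.8% of other sites. With Torin1 the values were 35.96%, 28.4% and 35.1% against 33.3%, 29.6% and 33.3%, so Torin1 replicate 2, with 359 such GG sites, went the other way. The difference was 2.07 percentage points ± 1.69 (SD, n = 6; exact sign-flip permutation p = 0.0625, adjusted 0.0804), and within 5000 nt it was -0.0080. Against the other sites with G as the second letter it was 0.82 percentage points (adjusted 0.458). Close to the end the classes differed most: the GG share of all sites was 35.1% in the last 250 nt of genes in the insulin list and 28.7% at 3000 to 4000 nt, and in the Torin1 list it was 37.5% and 31.4%. In the full lists GGACT had the largest share of the 3 GG motifs within 500 nt of the end, 11.0% with insulin and 11.7% with Torin1. All GG sites had 10.2% and 11.0% there, and other sites 8.61% and 9.22%. In replicate 3 of each condition GGACT had the smallest share of the 3, 9.14% with insulin and 9.58% with Torin1. By median distance to the end in the insulin list GGACC was nearer, at 3348.5 nt against 3594 nt for GGACT.

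**Figure D4:**
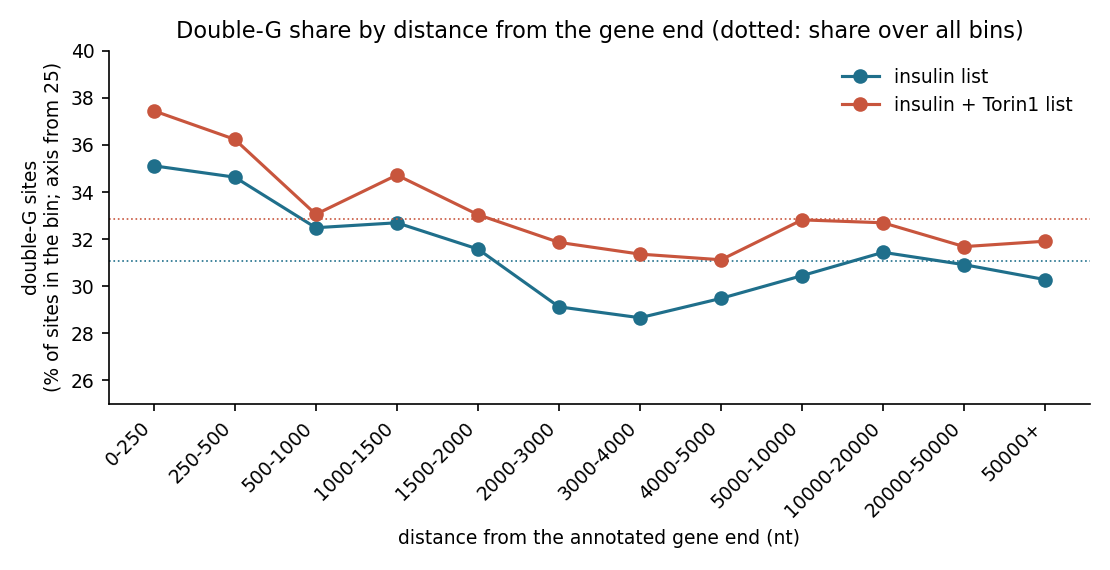
Double-G sites as a percentage of all sites in 1 protein-coding gene, by distance of the site from the annotated gene end, for the insulin and the insulin + Torin1 list; the vertical axis starts at 25 and dotted lines give the share over all bins. The share is highest in the last 250 nt, at 35.1% and 37.5%, and lies at 28.7% and 31.4% between 3000 and 4000 nt.

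At the gene start GG sites were more frequent than others in every library. Within 500 nt of the start lay 4.98%, 5.48% and 8.22% of GG sites in the insulin libraries and 4.93%, 8.64% and 5.35% in the Torin1 libraries. For other sites the shares were 2.74%, 3.13% and 3.83%, and 3.31%, 3.15% and 3.28%, so no library overlapped between the classes. The mean difference was 3.03 percentage points ± 1.54 (SD, n = 6; exact sign-flip permutation p = 0.03125, adjusted 0.05625), a comparison added after the data were seen. It was 2.99 at equal reads. GGACC and GGACT led here, with 6.35% and 6.34% of their insulin sites within 500 nt of the start against 3.98% of GGACA. The genes also differed in length: the median body was 32740 nt for GG sites and 40084 nt for other sites in the insulin list, and 32063 nt and 37262 nt with Torin1, and the part of gene length in these shares was not tested.

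At the gene start the letters of every window could be counted, so listed sites could be set against all motifs in the sequence. In the 50 bases after the start of genes with at least 10 units in all 6 input libraries, 15090 windows held 7775 DRACH 5-mers on the strand of the gene. GG was 27.7% of these 5-mers and 36.6% of the 487 that were listed as sites. Of 2154 GG 5-mers 8.26% were listed (Wilson 95% interval 7.17% to 9.50%), and of 5621 other 5-mers 5.50% were (4.93% to 6.12%). These intervals treat each 5-mer as independent and cover counting error only. GGACT was listed at 10.9% of its 682 occurrences, GGACA at 8.95% of 581 and GGACC at 5.84% of 891. The other motifs ran from 2.83% of 566 for AGACC to 9.09% of 429 for GAACT, with TGACT at 8.36% of 359. The listed share thus varied with the last letter as well as with the first letters. GGACC was the most frequent GG motif in the sequence, 41.4% of GG 5-mers, but 29.2% of the listed ones, where GGACT was 41.6%. A motif of this set occurred in 13.7% of these windows and in 14.4% of the same windows of all 34943 RefSeq gene starts.

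GG sites had a close neighbour less often than other sites in each of the 6 libraries. Another listed site of any motif on the same strand lay within 50 nt of 39.7%, 29.8% and 23.9% of GG sites in the insulin libraries and of 31.4%, 20.05% and 23.5% with Torin1. Other sites had 42.3%, 33.7% and 30.8%, and 32.5%, 24.5% and 24.6%. A neighbour could be listed under any replicate of the same condition, so the 6 differences are not independent of each other. The difference was -3.32 percentage points ± 2.22 (SD, n = 6), lower in 6 of 6 libraries (exact sign-flip permutation p = 0.03125, adjusted 0.05625), and -4.76 at equal reads. Within 200 nt it was -1.75 (adjusted 0.25), and in the full Torin1 list 58.8% of GG sites and 58.0% of other sites had a neighbour at that distance. In the full lists a neighbour that was itself a GG site was more frequent around GG sites. Within 50 nt 15.4% had one in the insulin list, against 13.3% of other sites, and 13.7% against 11.5% in the Torin1 list. The other sites with G as the second letter had 14.5% and 12.5%. Insulin replicate 3 went the other way, with 10.40% of GG sites and 10.54% of other sites, and this difference was not tested. GG sites exactly 5 nt from another GG site numbered 86 with insulin and 68 with Torin1.

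Some single sites stood far above the rest in substituted reads. The GG site with the most was a GGACA in the pseudogene RPS19P1, a copy of a ribosomal protein gene, at position 18504736 of chromosome 20 on the plus strand. It had 121 of 124 reads substituted with insulin and 349 of 366 with Torin1, and reads of the parent gene could fall on such a copy. In ACTG1, the gene of cytoplasmic gamma-actin, a GGACT at position 81510685 of chromosome 17, 714 nt from the gene end, had 68 of 706 reads substituted with insulin and 225 of 2115 with Torin1. ACTG1 also has pseudogenes of near-identical sequence. In NRARP, a feedback regulator of Notch signalling, a GGACC at position 137301572 of chromosome 9 had 67 of 260 and 28 of 140.

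The highest fractions among GG sites with at least 20 reads were near or at 1. A GGACC in the noncoding NUDT19-DT had all of 32 reads substituted with insulin and was not in the Torin1 list. A GGACC in SRSF2, which encodes a splicing factor, had 24 of 27 with insulin and 48 of 49 with Torin1, at position 76737018 of chromosome 17, where the body of MFSD11 overlaps. The GGACC in BTNL9, a butyrophilin-like gene, had 5 of 5 with insulin and 32 of 34 with Torin1. Whether the line's own sequence differs from the reference at these bases was not tested.

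GG sites fell in 9362 protein-coding genes, 5779 of them with GG sites in both lists, 2186 in the insulin list alone and 1397 in the Torin1 list alone. A gene with any GG site had a median of 2 in either list. At least 10 were found in 375 genes with insulin and in 117 with Torin1, with a maximum of 40 and 27. Genes differed widely in how much of their m6A map was GG. Among 2025 genes with at least 20 sites over both lists the GG share had a median of 30.4%, a 10th to 90th percentile range of 13.6% to 52.0%, and extremes of 0% and 86.2%. Of these genes 13 had no GG site.

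CEP72, a centrosomal protein gene (chr5:612340-676616, plus strand), had the most GG sites with insulin: 40 of its 95 sites, of which 27 were listed under replicate 1, 12 under replicate 2 and 1 under replicate 3. With Torin1 it had 22 of 42, with 20, 1 and 1 by replicate, and 19 positions were in both lists. Of its 40 insulin sites 21 were GGACA, 8 were GGACC and 11 were GGACT. Its input level was 1247, 1347 and 1168 normalized units with insulin and 519, 465 and 503 with Torin1, so both mRNA and the number of sites were lower with Torin1. The log2 fold change was -1.34 ± 0.057 (SE; limma, Benjamini-Hochberg adjusted p = 4.2e-16). Of 13842 genes tested, 86.0% were called at an adjusted p below 0.05 with limma, 43.4% higher and 42.5% lower with Torin1, so a call on a single gene sets it little apart. The 3 Torin1 values lay all above or all below the 3 insulin values in 86.3% of the tested genes. In a lysate fewer cells of a kind and less RNA per cell cannot be told apart.

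The other 7 of the 8 genes with the most GG sites in the insulin list had 26 to 33 there. DIDO1, which encodes a chromatin-binding protein, had 33 GG sites with insulin and 25 with Torin1, and 14 of the insulin sites were GGACC. ANKRD11, a chromatin regulator gene, had 33 and 15, and KMT2D, which encodes a histone H3 lysine 4 methyltransferase, had 33 and 14, with 16 GGACC among the first. EME2, a subunit gene of a structure-specific DNA endonuclease, had 32 and 21, of which 20 positions were shared. SPEN, which encodes a transcriptional repressor, had 31 and 27, and 25 positions were shared. ARHGAP35 had 26 and 18, and SMCR8, a partner of C9orf72, had 26 and 16.

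The Torin1 list was the smaller one, and all 8 of these genes had fewer GG sites in it. Under replicate 1 alone, where the 2 libraries held 16909 and 18731 GG sites, DIDO1 had 18 and 23, SPEN 22 and 24 and ARHGAP35 14 and 15, which turned the direction. CEP72 had 27 and 20, ANKRD11 had 17 and 14, KMT2D 24 and 11, EME2 24 and 19, and SMCR8 21 and 16, which kept it. KMT2D mRNA was 5707, 5620 and 5315 units with insulin and 3162, 3394 and 3398 with Torin1, and SMCR8 went from 2570, 2668 and 2517 to 638, 617 and 632. SPEN mRNA went the other way, from 7895, 7759 and 7376 to 9731, 10102 and 9803.

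The Torin1 list put SPEN and DIDO1 first and brought in EEF2, IRS2, AHNAK and SH3PXD2A. EEF2, the gene of translation elongation factor 2, had 15 GG sites with insulin and 20 with Torin1. Its strongest, a GGACT 464 nt from the gene end, had 34 of 1241 reads substituted with insulin and 81 of 6515 with Torin1. EEF2 mRNA was 69562, 64159 and 64393 units with insulin and 92766, 92165 and 94659 with Torin1, a log2 fold change of 0.50. Under quantile normalization it was 0, the value which that method gives to any gene of equal rank in every library. IRS2, which encodes an insulin receptor substrate, had 21 and 20 GG sites, 18 of them shared, and GG made up 52.6% of all its listed sites. Its GGACA at position 109783838 of chromosome 13 had 10 of 52 reads substituted with insulin and 26 of 358 with Torin1, and its mRNA was 3260, 3037 and 2856 units and then 5004, 5204 and 5117. AHNAK, which encodes a very large scaffold protein, had 12 and 20 sites. SH3PXD2A, a podosome scaffold gene, had 25 and 21, and its mRNA groups overlapped.

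The largest gains in GG sites with Torin1 were 9 or 10 sites. VCAN, the gene of a large proteoglycan of the extracellular matrix, had 0 GG sites with insulin and 10 with Torin1, and its mRNA rose from 177, 139 and 173 to 2761, 2741 and 2695 units. KIF3C, a kinesin gene, went from 0 to 9, and its mRNA from 48, 62 and 59 to 371, 347 and 358. PGGHG, which encodes an enzyme that acts on collagen glycans, went from 3 to 13, MPI, the mannose phosphate isomerase gene, from 4 to 13, CELSR1, a planar polarity cadherin gene, from 1 to 10, and CCDC57 from 4 to 13. The genes were chosen on these counts, and replicate 1 holds 18731 of the 20941 GG sites of the Torin1 list. The mRNA of all 6 was higher with Torin1, with log2 fold changes from 0.84 to 4.07. In PGGHG 13 of 16 GG entries lay within 2000 nt of the gene end, and in MPI none of 17 did.

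The largest losses were 17 to 19 sites. Beside CEP72, ANKRD11 and KMT2D, the largest were in STARD9, a kinesin-like gene, from 26 to 9, in PPARA, which encodes a nuclear receptor for fatty acids, from 19 to 2, and in PLIN4, a lipid droplet protein gene, from 20 to 3. PPARA mRNA was 2852, 2873 and 2835 units with insulin and 726, 711 and 733 with Torin1. PLIN4 mRNA was 504, 447 and 413 and then 59, 47 and 70. Under replicate 1 alone PPARA went from 14 to 2, PLIN4 from 14 to 3 and STARD9 from 10 to 7.

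**Figure D5:**
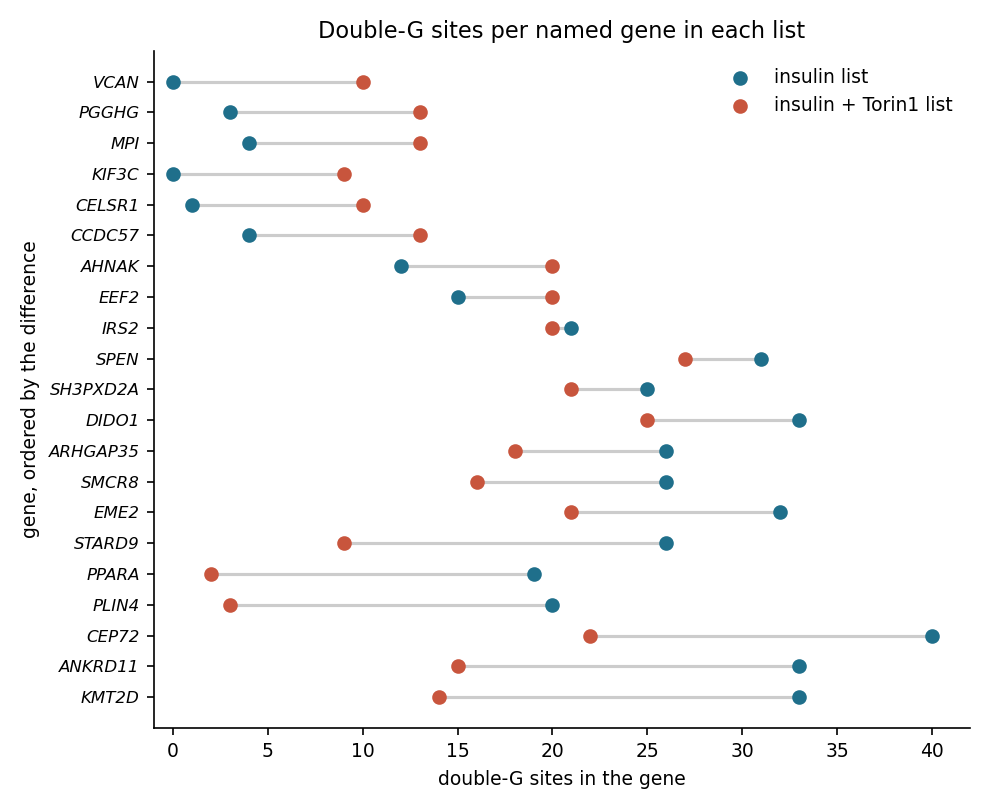
Number of double-G sites (horizontal axis) in the insulin and the insulin + Torin1 list for the 21 genes with the most sites, the largest gains or the largest losses, ordered by the difference. VCAN rises from 0 to 10 and KMT2D falls from 33 to 14; the genes were chosen on these counts.

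Genes with GG sites in 1 list alone differed in mRNA. Of 13553 tested genes with a RefSeq match, 43.5% were higher and 42.6% lower with Torin1 by limma. Of 1305 tested genes with GG sites in the Torin1 list alone, 70.7% were higher and 17.1% lower. Of 2023 genes with GG sites in the insulin list alone, 28.4% were higher and 58.5% lower, and of 5680 genes with GG sites in both, 38.4% and 49.7%. Among the 52 tested genes with at least 10 fewer GG sites, 51 were lower and 1 higher, and among the 56 with at least 5 more, 53 were higher and 2 lower. A site is listed only with at least 1 substituted read, so a change in methylation per molecule and a change in mRNA level cannot be told apart in these counts.

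Genes of the m6A machinery carried the mark themselves. Of 21 such genes 18 had a GG site, where 9008 of 13553 tested genes with a RefSeq match did. The 18 genes had 99 GG sites in the insulin list and 70 in the Torin1 list, and 67 and 65 under replicate 1 alone. GG was 30.8% of the insulin sites and 31.1% of the Torin1 sites in the m6A machinery genes, and 31.0% over both lists. Among all sites in exactly 1 protein-coding gene it was 25273 of 81354 with insulin and 17908 of 54486 with Torin1. Among the writers, RBM15B had 13 and 10 GG sites, RBM15 had 11 and 5, ZC3H13 had 7 and 3, VIRMA 4 and 4, METTL16 3 and 3, WTAP 2 and 3, CBLL1 2 and 1, and METTL3 and METTL14 1 in each list. The site with the most substituted reads was a GGACC in RBM15B, a component that guides the complex to RNA, at position 51393050 of chromosome 3, with 16 of 89 reads substituted with insulin and 19 of 234 with Torin1. RBM15 mRNA fell from 1706, 1597 and 1551 units to 534, 510 and 565. METTL3 mRNA rose from 886, 870 and 845 to 1023, 1027 and 1089.

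Of the erasers, ALKBH5 had 8 GG sites with insulin and 4 with Torin1 among 14 and 4 sites of any motif, and FTO had 1 in each list. ALKBH5 mRNA fell from 2652, 2593 and 2499 to 854, 870 and 872 units. Among the readers, IGF2BP1 had 12 and 8, YTHDF2 had 10 and 8, YTHDF1 had 8 and 6, and YTHDF3 6 and 6, and all 8 Torin1 positions of YTHDF2 were also in the insulin list. IGF2BP2 had 5 and 3, IGF2BP3 3 and 2, and HNRNPA2B1 2 and 1. In this list mRNA was higher for 6 and lower for 14 of 21 tested members, against 43.4% higher and 42.5% lower of all tested genes, with a median log2 fold change of -0.28, where all tested genes had a median of 0.019.

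The MAX network, the transcription factors that pair with MAX or its relative MLX, had 57 GG sites with insulin and 25 with Torin1, and 33 and 22 under replicate 1. A GG site was found in 11 of its 13 genes, against 9008 of 13553 tested genes with a RefSeq match. MNT, a repressor that competes with MYC, went from 11 to 1, MXD1, a repressor of the same kind, from 6 to 1, and MGA from 5 to 0. MLXIP had 8 and 3, MXD3 had 7 and 4, MAX 4 and 1, MLX 4 and 2, and MXI1 3 and 0. MYC went from 3 to 5, MXD4 from 5 to 6 and MYCL from 1 to 2. Among the 11 genes MXD3 had the highest GG share, 11 of 13 sites, and MGA the lowest, 5 of 64. Sites of any motif in these 11 genes numbered 165 with insulin and 82 with Torin1. MYC mRNA rose from 363, 295 and 358 units to 1293, 1249 and 1333, and MXD1 mRNA fell from 1150, 1081 and 1089 to 277, 279 and 251. MXI1 and MXD4 mRNA moved against their GG counts. MXI1 mRNA rose from 712, 725 and 760 to 1288, 1169 and 1270, and MXD4 mRNA fell from 2277, 2140 and 2013 to 1581, 1683 and 1713. In the list 4 members were higher and 7 lower of 12 tested, against 43.4% higher and 42.5% lower of all tested genes.

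Other gene groups differed in their GG share. The lowest were splicing factors, where 19.4% of all sites were GG, and cytosolic ribosomal proteins, at 20.7%. SON and SRRM2, which encode large nuclear speckle proteins, had 18 and 17 GG sites of 95 each with insulin, and 16 of 64 and 9 of 55 with Torin1. Ribosomal protein genes had 64 GG sites with insulin and 74 with Torin1, and 34 and 67 under replicate 1 alone. A GG site was found in 45 of the 77 genes, against 9008 of 13553 tested genes with a RefSeq match. The ribosomal protein genes were led by RPL13A with 4 and 6 and RPL28 with 5 and 4. Their mRNA was higher in 68 and lower in 3 of 76 tested, where 43.4% and 42.5% of all tested genes were. Chromatin regulators had 290 and 197 GG sites, 29.1% of their sites, led by SPEN, KMT2D, ASH1L with 18 and 10, and SETD1B with 16 and 9.

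ATF4 targets and genes of amino acid supply had 106 GG sites with insulin and 39 with Torin1, 35.3% of their sites, and 71 and 32 under replicate 1. The amino acid transporter genes SLC7A1, SLC1A5 and SLC7A5 had 19 and 7, 13 and 6, and 12 and 3, and the stress sensor gene SESN2 had 10 and 3. Of the 25 genes 23 were lower with Torin1 by limma, where 42.5% of all tested genes were. The immediate early and ERK feedback genes had 83 and 48 GG sites, 37.2% of their sites. JUN had 9 and 8, JUNB had 11 and 3, IER2 had 10 and 6, and ZFP36L2, which encodes an RNA-decay factor, had 9 and 8. In this list 17 genes were lower and 3 higher of 22 tested, where 42.5% of all tested genes were lower and 43.4% higher. The GG share of a list describes its genes' sites and was not tested against other lists.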

How the data were processed

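Data came from 6 miCLIP and 6 input libraries of HEK293E cells, grouped by their labels. Per the submitters' processing notes the build was hg38, and BWA 0.7.1, STAR, DESeq2 1.22.2 and DESeq were used, with no role given. The authors deposited 1 list of m6A sites per condition, with replicate, reads, substituted reads and 5-mer. The fraction deposited for each site equals its substituted reads divided by its reads, as tested on the file. The expression table that the authors deposited holds rounded values normalized between libraries, used as a score and not as counts; totals were 12424643 to 12528454 with insulin and 11418114 to 11438881 with Torin1.

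Sites were placed in RefSeq gene bodies (GRCh38.p14; strand from the promoter table for 15842 of 20046 genes, otherwise that of most sites). Of 2120 sites in promoter windows 98.2% matched the deposited 5-mer. GG and other sites were compared within libraries by exact sign-flip tests, adjusted over 9 comparisons, and groups by exact permutation. To compare at equal reads, sites of a library were weighted by read class. Expression was tested with limma 3.58.1 (R 4.3.3) on log2(value + 1) for genes with at least 10 in at least 3 libraries, and the test was tried on simulated data. Python 3.11.15 and scipy 1.17.1 did the rest. Same-numbered input libraries did not deviate together in expression (correlations -0.023, 0.0097 and -0.0040). The miCLIP libraries were not checked in this way, and their GG share had the same order of replicates in both groups.

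Named genes were the 8 with the most GG sites in each list, the 6 largest gains and 6 largest losses, and all m6A machinery and MAX network members with a GG site. Named sites were those with the most substituted reads per motif and list, and the 3 highest fractions per list with at least 20 reads; 1 of them, and 1 sequence window, is not reported here. Members and lists were chosen with earlier results of these data known. Labels speak of biological replicates without saying how cultures were separated, so p-values measure the spread between these samples.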

Additional observations from a re-analysis of the deposited data

How the results depend on the processing

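With Torin1 minus insulin, the difference in GG share took the opposite sign when sites with every read substituted were left out (0.14 percentage points) and when only sites in 1 gene with at least 10 units in all 6 input libraries were kept (0.71), and ranged from -1.62 to 1.19 when 1 library was left out. Leaving out insulin replicate 1 gave 0.87 and leaving out Torin1 replicate 2 gave 1.19. The GGACT share difference ranged from 1.217 to 1.57 with 1 library left out, and with a replicate block it was 1.34 (exact p = 0.25, the smallest possible with 3 pairs). Keeping only sites in expressed genes moved 6 within-library comparisons past the threshold, each with an adjusted p of 0.0469: 3 or more substituted reads (3.15 percentage points), log2 reads (0.17), sharing (9.14), neighbours (-3.50), gene start (3.21) and last letter T (-10.7). The exact sign-flip p cannot go below 0.03125 with 6 libraries, so the adjusted value depends on how many of the 9 comparisons reach that floor. Log2 reads stayed above it in the main setting, at 0.0625. Passing the threshold is therefore no measure of a larger difference, and that in last letter T was -11.2 in the main setting. The fraction of GG minus other sites was 0.0049 against sites with the second letter G alone and 0.0051 at equal reads, and that of GGACT minus the others was 0.018 without sites whose every read was substituted. The share near the gene end was -0.0080 at 5000 nt. With 1 library left out, sharing ranged from 7.28 to 8.07, the gene start from 2.54 to 3.31 and neighbours from -3.77 to -2.61.

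Under quantile normalization DIDO1, RBM15B and ZC3H13 had log2 fold changes of 0.034, 0.020 and 0.066, and the change in EEF2 was 0. YTHDF3, MXD4 and MLXIP also lost their calls there. Quantile normalization gives 0 to any gene of equal rank in every library, so it cannot show a change in such a gene. Expression calls numbered 11850 with the replicate block and 11178 to 11498 with 1 library left out, against 11898. When totals were made equal, the median log2 fold change over all genes was 0.14, against 0.019. GG counts turned direction under replicate 1 alone in DIDO1 (5), SPEN (2), ARHGAP35 (1), SH3PXD2A (4), IRS2 (3), IGF2BP2 (2) and MXD3 (2), and with 2 or more substituted reads in SPEN (3), IRS2 (4), YTHDF2 (2) and HNRNPA2B1 (1). The cause was not tested. Torin1 replicates 2 and 3 and insulin replicate 3 had a median of 2 reads over a site, which limits every value from them.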
